A study of Mus musculus with 6 samples.

Results

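The collagen genes of the mouse heart were followed as a family in WT and Mc4r KO mice. A gene was taken as a member when it was listed as protein-coding and its whole symbol read Col, a number, the letter a and a number, which gave 44 genes among the 54532 in the table. Col4a3bp, a lipid transfer protein whose symbol only begins like a collagen, was not counted. Hearts came from 12-week-old mice, 3 WT and 3 Mc4r KO, with 1 RNA sequencing library per mouse. The labels call the tissue heart, the sample titles begin with the word Muscle, and the study's text speaks of the left ventricle. The Mc4r KO mice were homozygous for a deletion of the melanocortin-4 receptor in every tissue, the WT mice were littermates without it from the same heterozygous crosses, and all were kept on the C57B/6/N background with free access to standard chow. The receptor acts mainly in the hypothalamus, where it restrains food intake, so a knockout in every tissue does not separate an effect within the heart from effects elsewhere in the body. Mc4r itself had 0 reads in 5 libraries and 2 reads in WT replicate 3, a level too low to check the genotype.

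Collagens are secreted proteins in which 3 chains wind around each other into a stiff helix, and each gene encodes a chain. Fibrillar collagens such as types I and III assemble into the fibres that carry tension between heart muscle cells. Type IV collagen forms the sheet-like network of the basement membrane around each heart muscle cell and capillary, and type VI collagen forms beaded filaments that lie between the basement membrane and the fibres. Others decorate the surface of fibres, cross the cell membrane, or, as the multiplexins, bind basement membranes. In the heart most fibrillar collagen is made by fibroblasts, whereas type IV collagen comes from endothelial cells, smooth muscle cells, fibroblasts and heart muscle cells. Whether collagen transcripts differ in Mc4r KO hearts bears on the matrix before heart function changes, which is the stage the study addressed.

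No collagen gene differed between the groups by the rule used for the whole table, which asked for an adjusted p under 0.05 and a log2 fold change beyond 0.75 in either direction. Of the 44 members, 30 had a mean of at least 0.1 FPKM (fragments per kilobase of gene, scaled between libraries) and entered the limma fit. Among these 30, 0 passed, where 83 of 18035 genes did (0.46%). No member had an adjusted p under 0.05 at any size of change in this fit, but some did in other fits. With limma voom on reads recovered from the FPKM, 4 members had one (Col4a1, Col4a2, Col4a4 and Col6a6), and only Col6a6, among 314 of all genes, also passed the fold change. It was 2 members with array weights (Col4a1 and Col6a6), 1 among protein-coding genes only (Col4a1) and 3 without WT replicate 3 (Col4a1, Col6a6 and Col16a1). No other setting tried gave any. The settings that did also called more of all genes by both thresholds than this fit. They called 435 with array weights (2.41%), 204 among protein-coding genes (1.51%), 726 without WT replicate 3 (4.04%) and 314 with voom (1.74%). Of the 30, 8 had an unadjusted p under 0.05, or 26.7%, against 20.9% of all genes tested. The log2 fold change, taken on log2(FPKM + 0.1) as Mc4r KO over WT, was above 0 for 14 members and below 0 for 16. Its median over the 30 was -0.03, beside -0.01 over all genes tested.

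The values within the family were not all alike. In 9 of the 30 members the 3 Mc4r KO libraries lay wholly on one side of the 3 WT libraries. Col4a1, Col4a2, Col6a3 and Col13a1 had their 3 Mc4r KO values above every WT value, which is 4 of 30 where 14.1% of all genes did the same. Col15a1, Col4a3, Col4a4, Col4a6 and Col6a6 had them below every WT value, which is 5 of 30 where 12.4% of all genes did. Of these 9 genes, 5 encode chains of type IV collagen. The shares are close to those of all genes, so the number of such members is no result about the family. The adjusted p of the 9 in the limma fit ran from 0.0719 for Col4a1 to 0.362 for Col4a6.

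The libraries need a short account before single genes are described. The reads recovered on genes numbered 14691076 to 16047003 per library, so a value from a few reads is imprecise and its floor covers counting error only. Transcripts of the mitochondrial chromosome took 59.3%, 57.4% and 47.1% of the FPKM in WT replicates 1 to 3. They took 43.6%, 46.6% and 43.0% in Mc4r KO replicates 1 to 3. All 8 heart muscle markers were present, with summed FPKM of 12282 to 12969 in WT and 14863 to 16392 in Mc4r KO. The libraries differed in their levels of atrial and epicardial markers, and how much of such tissue each held was not measured. The 5 atrial markers, Myl7, Myl4, Sln, Nppa and Bmp10, summed to 28.7, 95.2 and 798 FPKM in WT replicates 1 to 3 and to 137, 6.29 and 43.7 FPKM in Mc4r KO replicates 1 to 3, and Sln was at 0 in WT replicate 1 and Mc4r KO replicates 2 and 3. The 6 epicardial markers summed to 7.35, 5.32 and 30.3 FPKM in WT and to 5.79, 8.42 and 6.46 FPKM in Mc4r KO. WT replicate 3 thus stood apart on both lists. In mitochondrial share it was instead the WT library nearest to Mc4r KO. Values without WT replicate 3 are given beside the genes whose adjusted p or fold change moved most. Those values compare groups that lie further apart in mitochondrial share. In whole tissue, fewer cells of a type and less RNA per cell cannot be told apart.

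A few chains made up most of the collagen transcript in every heart. The 12 members with the highest mean gave 90.8% to 92.4% of the summed collagen FPKM in WT and 92.4% to 93.2% in Mc4r KO. Col4a1 led in all 6 libraries and Col4a2 came next, followed by Col3a1, Col6a1, Col1a1, Col15a1, Col1a2 and Col6a2 by mean. From Col3a1 to Col6a2, neighbours in this order overlapped between libraries and cannot be ranked firmly. The order also rests on the gene length, because the deposited length joins all annotated exons. Divided instead by the longest coding transcript, Col1a2 moved from place 7 to place 4 and the mean of Col3a1 went from 22.4 to 39.5 FPKM, while Col4a1, Col4a2 and Col3a1 kept places 1 to 3. The ratio of a gene's FPKM between libraries does not depend on the length chosen. The added 0.1 and the filter at 0.1 FPKM do depend on it, which matters for genes with low values. By the longest coding transcript, Col25a1 and Col26a1 would have means of 0.112 and 0.144 FPKM, above the filter.

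**Figure D1:**
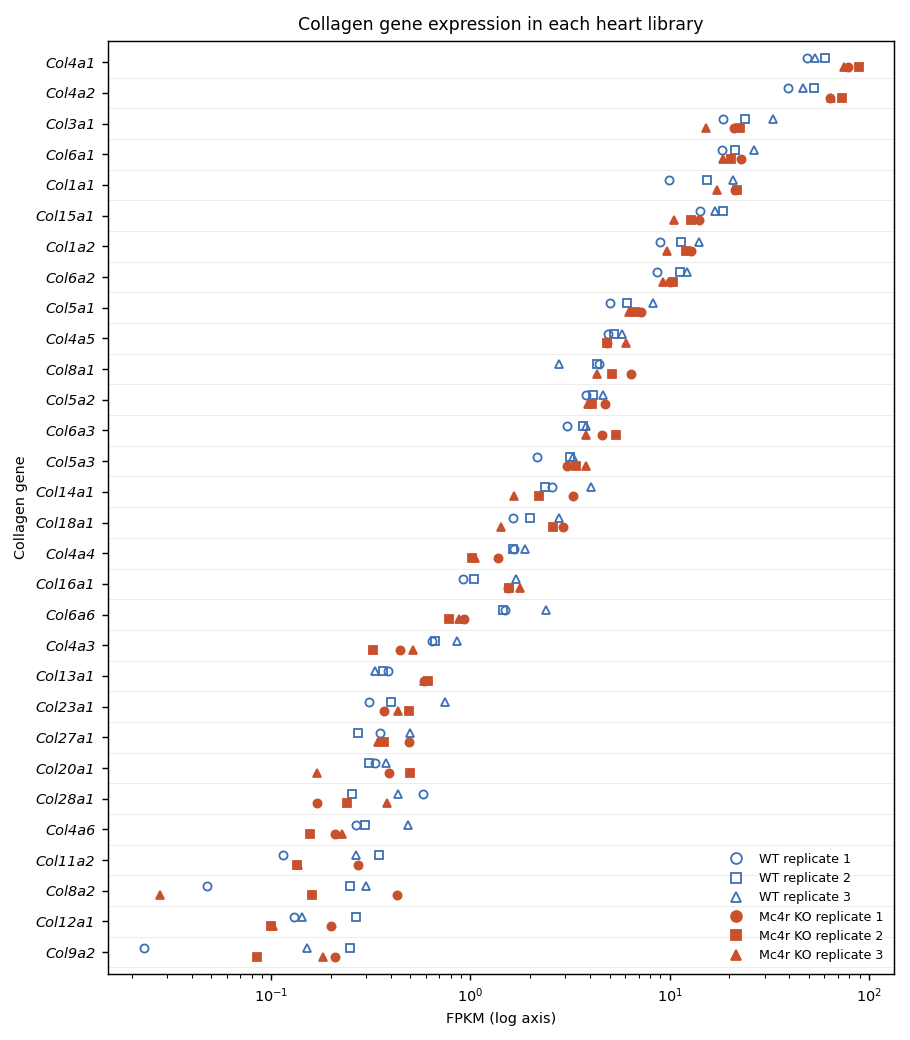
FPKM of the 30 collagen genes with a mean of at least 0.1 FPKM on a log axis, with open blue symbols for the 3 WT libraries and filled orange symbols for the 3 Mc4r KO libraries. Col4a1 and Col4a2 stand at the top with all Mc4r KO values to the right of the WT values, and the spread between libraries widens toward the genes with few reads at the bottom.

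Together the collagen genes summed to 202, 255 and 270 FPKM in WT replicates 1 to 3 and to 290, 304 and 259 FPKM in Mc4r KO replicates 1 to 3. The groups overlapped, with means of 242 ± 36.0 and 284 ± 23.1 FPKM (SD, n = 3 each) and a ratio of 1.17. Without Col4a1 and Col4a2 the sums were 114, 141 and 170 FPKM in WT and 147, 142 and 119 FPKM in Mc4r KO, at a ratio of 0.961. The higher mean of the family sum thus lay in those type IV chains. They made up 43.7%, 44.7% and 37.2% of collagen FPKM in WT and 49.1%, 53.4% and 54.0% in Mc4r KO, without overlap. A larger share of these chains lowers that of the others. The multiplexins, Col15a1 and Col18a1, made up 7.89%, 8.09% and 7.31% in WT and 5.86%, 5.09% and 4.62% in Mc4r KO, and the beaded filament chains 14.8% to 16.6% in WT and 12.2% to 13.2% in Mc4r KO, both without overlap. Their summed levels did overlap, at 15.9 to 20.6 FPKM in WT and 12.0 to 16.98 FPKM in Mc4r KO for multiplexins and at 31.5 to 44.8 and 32.6 to 38.4 FPKM for beaded filament chains. Fibrillar chains made up 24.2% to 31.4% in WT and 21.9% to 24.6% in Mc4r KO, where the groups overlapped.

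Type IV collagen has 6 genes that lie as 3 pairs, each pair transcribed outward from neighbouring starts. Col4a1 (ENSMUSG00000031502, chromosome 8, 11198423 to 11312826, minus strand, GRCm38) and Col4a2 (ENSMUSG00000031503, chromosome 8, 11312805 to 11449287, plus strand) encode the chains found in nearly all basement membranes. Their annotated 5′ ends overlap by 22 bases. Their promoter windows, from 250 bases before to 50 after each start, are shown because these were the highest collagen genes and were higher together in Mc4r KO. Capitals mark matches to CCAAT, bound by NF-Y, and to GGGCGG, the GC box bound by Sp1, each searched on both strands so that ATTGG and CCGCCC also count. The sequences are from RefSeq on GRCm38.p6, written 5′ to 3′ on the strand of the gene.
Col4a1 (chr8:11312777-11313076, minus strand): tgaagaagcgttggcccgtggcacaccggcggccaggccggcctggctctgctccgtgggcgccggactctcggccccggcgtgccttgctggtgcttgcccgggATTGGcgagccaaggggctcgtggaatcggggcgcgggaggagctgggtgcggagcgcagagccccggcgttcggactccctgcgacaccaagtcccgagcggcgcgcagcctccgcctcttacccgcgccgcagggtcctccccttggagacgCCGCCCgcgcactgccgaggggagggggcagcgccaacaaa
Col4a2 (chr8:11312555-11312854, plus strand): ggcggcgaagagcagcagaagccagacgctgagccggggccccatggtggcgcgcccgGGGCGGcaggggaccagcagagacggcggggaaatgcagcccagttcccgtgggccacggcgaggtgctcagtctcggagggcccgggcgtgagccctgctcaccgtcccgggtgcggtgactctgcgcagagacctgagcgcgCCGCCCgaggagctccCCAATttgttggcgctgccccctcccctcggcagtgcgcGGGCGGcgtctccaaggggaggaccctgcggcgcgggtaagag
The windows share 78 bases of the genome, read on opposite strands, and neither holds TATAAA. The Col4a1 window has 1 CCAAT and 1 GC box match, and the Col4a2 window has 1 CCAAT and 3 GC box matches. Among all 32851 promoter windows of the reference, 37.4% hold CCAAT, 35.7% hold GGGCGG and 13.6% hold TATAAA. Of the 38 windows found for 35 of the 44 collagen genes, 34.2% hold CCAAT, 60.5% hold GGGCGG and 13.2% hold TATAAA. A match describes the sequence and is not a measured binding site.

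Col4a1 stood at 48.8, 60.6 and 53.8 FPKM in WT replicates 1 to 3 and at 78.4, 89.1 and 74.9 FPKM in Mc4r KO replicates 1 to 3. Col4a2 stood at 39.3, 53.4 and 46.8 FPKM in WT and at 64.1, 73.2 and 64.9 FPKM in Mc4r KO. For both genes the lowest Mc4r KO library was above the highest WT library. The limma fold change of Col4a1 was 1.49 (log2 0.57, SE 0.11, 95% interval 0.31 to 0.83, adjusted p = 0.0719). That of Col4a2 was 1.46 (log2 0.54, SE 0.13, 95% interval 0.25 to 0.84, adjusted p = 0.0945). Neither passed the threshold in this fit. On the same 6 libraries the adjusted p of Col4a1 was 0.0190 with voom, 0.0413 with array weights and 0.0403 among protein-coding genes. That of Col4a2 was 0.0316, 0.0577 and 0.0541. Some other limma settings raised the adjusted p, for Col4a1 to 0.126 with a replicate block, 0.141 after GC correction and 0.322 with the mitochondrial covariate. For Col4a2 these were 0.133, 0.265 and 0.453. No fold change of either gene reached 0.75 on the log2 scale. Without WT replicate 3 the log2 values were 0.57 and 0.55, with an adjusted p of 0.0409 for Col4a1 and 0.0622 for Col4a2 in limma. The other limma fits without 1 library gave an adjusted p of 0.122 to 0.239 for Col4a1 and 0.131 to 0.284 for Col4a2. The ratio of Col4a2 to Col4a1 was 0.805, 0.882 and 0.868 in WT and 0.817, 0.822 and 0.867 in Mc4r KO, so the chains kept nearly the same proportion in every heart (exact two-sided permutation p = 0.7). The 9 endothelial markers summed to 178 to 201 FPKM in WT and 170 to 203 FPKM in Mc4r KO, with a median log2 fold change of 0.03.

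Of the type IV chains that are restricted to specialised basement membranes, Col4a3 and Col4a4 had lower values in Mc4r KO. Col4a4 (ENSMUSG00000067158, chromosome 1, 82448423 to 82586849, minus strand) and Col4a3 (ENSMUSG00000079465, chromosome 1, 82586921 to 82722059, plus strand) start 71 bases apart on opposite strands. With Col4a5 they form the network known from the kidney filter, which is lost in Alport syndrome. The window of Col4a4, shown because it also spans the start of Col4a3 and both genes were lower together, holds none of the 3 motifs searched.
Col4a4 (chr1:82586800-82587099, minus strand): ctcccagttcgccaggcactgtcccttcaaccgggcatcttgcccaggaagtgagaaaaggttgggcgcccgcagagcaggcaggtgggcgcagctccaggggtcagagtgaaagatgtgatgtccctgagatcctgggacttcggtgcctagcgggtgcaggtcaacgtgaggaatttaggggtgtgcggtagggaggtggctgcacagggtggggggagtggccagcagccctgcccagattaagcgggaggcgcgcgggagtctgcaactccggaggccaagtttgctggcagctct
Col4a4 was read at 1.66, 1.65 and 1.88 FPKM in WT replicates 1 to 3 and at 1.38, 1.02 and 1.05 FPKM in Mc4r KO replicates 1 to 3. Col4a3 was read at 0.640, 0.664 and 0.860 FPKM in WT and at 0.446, 0.324 and 0.513 FPKM in Mc4r KO. No Mc4r KO library of either gene reached the lowest WT library. The log2 fold change was -0.56 for Col4a4 (SE 0.16, 95% interval -0.94 to -0.17, limma adjusted p = 0.131) and -0.65 for Col4a3 (SE 0.24, 95% interval -1.21 to -0.09, limma adjusted p = 0.193). With voom the adjusted p of Col4a4 was 0.0478, and over all settings it reached 0.393. Behind these values were 165 to 339 reads per library for Col4a4 and 49 to 146 for Col4a3. An RNA gene, C430014B12Rik, covers 5.65% of the exonic bases of Col4a3 on either strand, and reads there cannot be assigned with certainty. Without WT replicate 3, which had the highest value of both genes, the log2 fold changes were -0.50 and -0.53.

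Col4a5 and Col4a6 form the third pair, on the X chromosome, with starts 1308 bases apart. Col4a5 (ENSMUSG00000031274), the partner of Col4a3 and Col4a4, stood at 4.92, 5.29 and 5.74 FPKM in WT and at 4.88, 4.83 and 6.03 FPKM in Mc4r KO, and the groups overlapped. Its log2 fold change was -0.02, with a 95% interval of -0.31 to 0.27 (limma adjusted p = 0.939). Col4a6 (ENSMUSG00000031273) was at 0.267, 0.297 and 0.486 FPKM in WT and at 0.210, 0.157 and 0.227 FPKM in Mc4r KO. These values rest on 19 to 66 reads per library, and although the groups did not overlap, the interval of the log2 fold change of -0.57 ran from -1.33 to 0.19 (limma adjusted p = 0.362). Without WT replicate 3, which had the highest value, the log2 fold change of Col4a6 was -0.36. The members of the first and the second pair thus had like values within the pair, whereas in the third pair Col4a6 was lower and Col4a5 was near 0 difference.

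Type VIII collagen, a short chain that forms hexagonal nets in vessel walls and other sites, completes the network-forming class together with type X. Col8a1 (ENSMUSG00000068196) was at 4.42, 4.30 and 2.80 FPKM in WT and at 6.41, 5.13 and 4.30 FPKM in Mc4r KO. Mc4r KO replicate 3 lay between WT replicates 1 and 2, so the groups overlapped. The log2 fold change was 0.46 (SE 0.21, 95% interval -0.05 to 0.96, limma adjusted p = 0.279) and it was 0.25 without WT replicate 3, which had the lowest value. Col8a2 ranged from 0.0474 to 0.301 FPKM in WT and from 0.0278 to 0.431 FPKM in Mc4r KO, on 2 to 30 reads. Col10a1, the collagen of growth plate cartilage, had 1 read in all 6 libraries together.

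**Figure D2:**
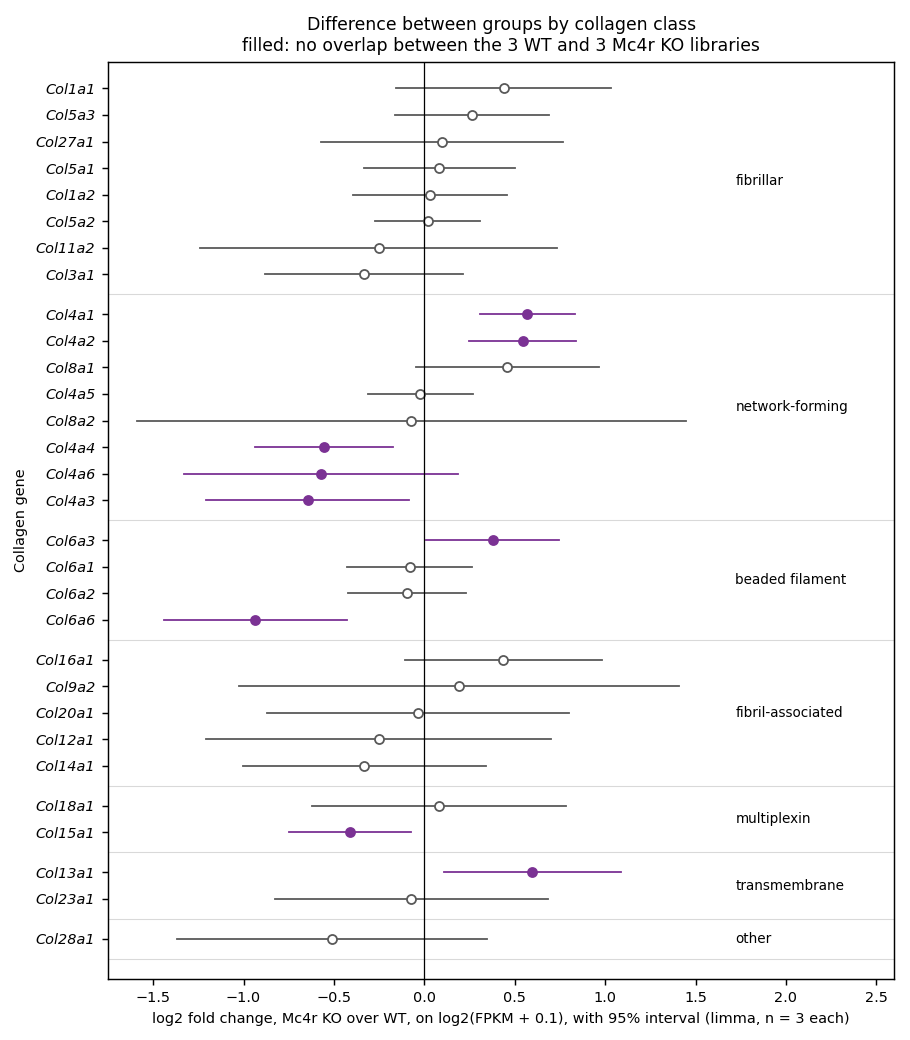
Log2 fold change of each of the 30 collagen genes tested, Mc4r KO over WT on log2(FPKM + 0.1), with its 95% interval from limma (n = 3 each), grouped by collagen class. Filled purple points mark the 9 genes whose groups did not overlap, and 5 of these are network-forming chains, from 0.57 for Col4a1 to -0.65 for Col4a3.

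The main fibre-forming chains showed no difference that exceeded the spread between hearts. Type I collagen, the stiff fibre of tendon, bone and scar, is built from chains of Col1a1 and Col1a2, and type III collagen, common in compliant tissues, from chains of Col3a1. Col1a1 (ENSMUSG00000001506, chromosome 11, 94936224 to 94953042, plus strand) stood at 9.97, 15.4 and 20.9 FPKM in WT and at 21.4, 21.9 and 17.2 FPKM in Mc4r KO. WT replicates 1 and 2 were below every Mc4r KO library and WT replicate 3 was among them. The log2 fold change was 0.44, with a 95% interval of -0.15 to 1.03 (limma adjusted p = 0.371). It was 0.69 without WT replicate 3 and 0.16 without WT replicate 1, so single WT libraries set its size. Col1a2 (ENSMUSG00000029661) stood at 8.91, 11.4 and 14.0 FPKM in WT and at 12.8, 12.2 and 9.73 FPKM in Mc4r KO, a log2 fold change of 0.03 with a 95% interval of -0.40 to 0.46 (limma adjusted p = 0.946).

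Col3a1 (ENSMUSG00000026043, chromosome 1, 45311538 to 45349706, plus strand) stood at 18.5, 23.8 and 33.1 FPKM in WT and at 21.2, 22.6 and 15.2 FPKM in Mc4r KO. The WT values spread more widely than the Mc4r KO values and enclosed 2 of them. Col3a1 had a log2 fold change of -0.33 (95% interval -0.88 to 0.21, limma adjusted p = 0.462), and it was -0.12 without WT replicate 3, which had the highest value. Type V collagen, which sits inside type I fibres and sets their width, also had overlapping groups. Col5a1 (ENSMUSG00000026837) was at 5.05, 6.08 and 8.23 FPKM in WT and at 7.22, 6.70 and 6.24 FPKM in Mc4r KO, a log2 fold change of 0.08 with a 95% interval of -0.33 to 0.50. Col5a2 (ENSMUSG00000026042), which lies tail to tail with Col3a1, was at 3.80, 4.15 and 4.63 FPKM in WT and at 4.74, 4.10 and 3.91 FPKM in Mc4r KO, a log2 fold change of 0.02 with a 95% interval of -0.27 to 0.31. The other fibrillar chains that were tested, Col5a3, Col11a2 and Col27a1, had log2 fold changes of 0.26, -0.25 and 0.10 and overlapping groups. In sum the fibrillar class gave 48.9 to 84.9 FPKM in WT and 56.6 to 71.3 FPKM in Mc4r KO, with means of 66.2 ± 17.996 and 66.4 ± 8.45 FPKM (SD, n = 3 each).

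A ratio of chains within a library does not depend on how libraries are scaled to each other. Its log2 difference between groups is that of the first gene less that of the second. The ratio of Col3a1 to Col1a1 FPKM was 1.86, 1.54 and 1.59 in WT replicates 1 to 3 and 0.991, 1.03 and 0.882 in Mc4r KO replicates 1 to 3. It was lower in every Mc4r KO heart, by 0.78 on the log2 scale (mean 1.66 ± 0.171 in WT and 0.968 ± 0.0779 in Mc4r KO, SD, n = 3 each). The exact two-sided permutation test gave p = 0.1, which is the smallest that 3 against 3 libraries allow, and 0.267 after adjustment over the 8 ratios examined. Within the 2 groups the ratio was steadier between hearts than either gene. Among WT hearts Col1a1 varied from 9.97 to 20.9 FPKM, while the ratio of Col3a1 to Col1a1 stayed within 1.54 to 1.86. Without WT replicate 3 the log2 difference was -0.81, and it lay between -0.83 and -0.63 under every processing tried for the ratios.

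The ratio of Col1a2 to Col1a1, the chains of type I collagen, was 0.893, 0.740 and 0.671 in WT and 0.600, 0.557 and 0.564 in Mc4r KO. All Mc4r KO hearts were below all WT hearts, with a log2 difference of -0.41 (exact permutation p = 0.1, adjusted 0.267). The absolute ratio carries the listed length of Col1a2, which is 12426 bases beside 5348 in its longest coding transcript, and only its difference between groups can be read. The ratio of Col5a2 to Col5a1 was 0.753, 0.682 and 0.563 in WT and 0.657, 0.613 and 0.626 in Mc4r KO and overlapped (log2 difference -0.07, exact permutation p = 0.6). Col4a1 over Col1a1, basement membrane against fibre, was 4.90, 3.93 and 2.58 in WT and 3.67, 4.07 and 4.34 in Mc4r KO, and Col8a1 over Col1a1 was 0.443, 0.279 and 0.134 in WT, with a mean of 0.262 ± 0.0341 in Mc4r KO (SD, n = 3). Both overlapped and had WT replicate 3 as the lowest library, and without it the log2 difference was -0.13 for Col4a1 over Col1a1 and -0.43 for Col8a1 over Col1a1, in place of 0.13 and 0.03.

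**Figure D3:**
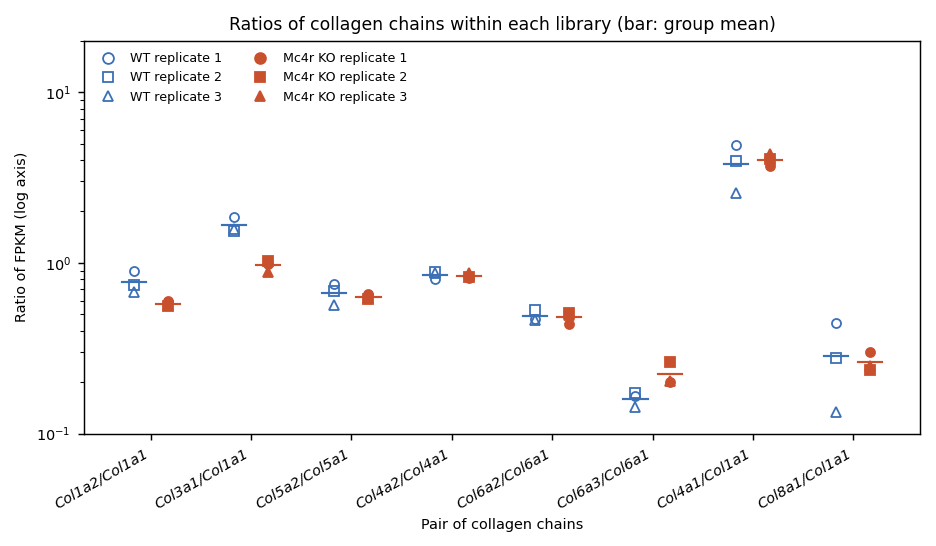
Ratio of FPKM of 8 pairs of collagen chains in each library on a log axis, WT in open blue and Mc4r KO in filled orange symbols, with a bar at the mean of each group. The groups do not overlap for Col1a2 over Col1a1, Col3a1 over Col1a1 and Col6a3 over Col6a1, and they overlap for the other 5 pairs.

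Type VI collagen is built from chains of Col6a1 and Col6a2 with a further chain that is Col6a3 or, in some tissues, Col6a4, Col6a5 or Col6a6. Col6a1 (ENSMUSG00000001119) was at 18.3, 21.3 and 26.4 FPKM in WT and at 22.8, 20.5 and 18.6 FPKM in Mc4r KO. Col6a2 (ENSMUSG00000020241), its neighbour on chromosome 10 on the same strand, was at 8.64, 11.3 and 12.2 FPKM in WT and at 10.04, 10.46 and 9.28 FPKM in Mc4r KO. The groups overlapped for both, with log2 fold changes of -0.08 (95% interval -0.43 to 0.26) and -0.10 (95% interval -0.42 to 0.23). Col6a3 (ENSMUSG00000048126, chromosome 1, 90765923 to 90843971, minus strand) was at 3.04, 3.66 and 3.79 FPKM in WT and at 4.59, 5.40 and 3.81 FPKM in Mc4r KO. The groups did not overlap, though Mc4r KO replicate 3 and WT replicate 3 were nearly equal, and the log2 fold change was 0.38 (SE 0.16, 95% interval 0.01 to 0.75, limma adjusted p = 0.230). Over Col6a1, Col6a3 stood at 0.166, 0.172 and 0.143 in WT and at 0.201, 0.264 and 0.205 in Mc4r KO, without overlap (log2 difference 0.47, exact permutation p = 0.1, adjusted 0.267). Col6a2 over Col6a1 was 0.471, 0.531 and 0.462 in WT and 0.441, 0.511 and 0.498 in Mc4r KO (log2 difference -0.01, exact permutation p = 1).

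Col6a6 (ENSMUSG00000043719, chromosome 9, 105687809 to 105828160, minus strand) had the largest difference of the tested members in either direction. It was read at 1.501, 1.466 and 2.389 FPKM in WT replicates 1 to 3 and at 0.935, 0.783 and 0.877 FPKM in Mc4r KO replicates 1 to 3, from 193 to 373 reads in WT and 109 to 133 in Mc4r KO. Every Mc4r KO heart was below every WT heart, and the Mc4r KO hearts were close to each other while WT replicate 3 was well above the other WT hearts. The fold change was 0.523 (log2 -0.94, SE 0.21, 95% interval -1.44 to -0.43, limma adjusted p = 0.0932). Without WT replicate 3 the log2 fold change was -0.72 with a limma adjusted p of 0.0464. Over all settings the adjusted p reached 0.279. Its promoter window is shown because of this difference, with 2 GC box matches in capitals and no CCAAT or TATAAA.
Col6a6 (chr9:105828036-105828335, minus strand): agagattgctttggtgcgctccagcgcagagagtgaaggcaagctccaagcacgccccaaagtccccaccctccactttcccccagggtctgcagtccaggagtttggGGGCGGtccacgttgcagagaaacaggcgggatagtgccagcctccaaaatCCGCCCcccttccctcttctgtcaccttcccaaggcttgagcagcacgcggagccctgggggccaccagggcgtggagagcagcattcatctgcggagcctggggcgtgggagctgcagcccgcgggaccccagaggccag
Its neighbours on the same strand, Col6a5 and Col6a4, were hardly read. Col6a5 had 0 to 5 reads per library and Col6a4 had 0 in all 6, which at 3 reads allows up to 0.0207 to 0.0250 FPKM.

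Among the multiplexins, Col15a1 (ENSMUSG00000028339, chromosome 4, 47208161 to 47313167, plus strand), which links basement membranes to the fibres below them around capillaries and muscle cells, was at 14.28, 18.63 and 16.97 FPKM in WT and at 14.1, 12.9 and 10.5 FPKM in Mc4r KO. The groups did not overlap, but WT replicate 1 and Mc4r KO replicate 1 differed little. The log2 fold change was -0.41 (SE 0.14, 95% interval -0.75 to -0.08, limma adjusted p = 0.172). Col18a1, the source of endostatin, ranged from 1.65 to 2.79 FPKM in WT and from 1.42 to 2.93 FPKM in Mc4r KO, with a log2 fold change of 0.08. Of the transmembrane collagens, Col13a1 (ENSMUSG00000058806, chromosome 10, 61838236 to 61979108, minus strand), found at cell adhesion sites and at the neuromuscular junction, was at 0.385, 0.363 and 0.332 FPKM in WT and at 0.588, 0.615 and 0.582 FPKM in Mc4r KO. The libraries of each group were close together and the groups were well apart, yet only 24 to 26 reads in WT and 42 to 43 in Mc4r KO lay behind them. Col13a1 had a log2 fold change of 0.60 (SE 0.21, 95% interval 0.11 to 1.09, limma adjusted p = 0.174). Col23a1 overlapped, with a log2 fold change of -0.07.

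The fibril-associated collagens, which attach to the surface of fibres, gave 4.01 to 6.65 FPKM in sum in WT and 4.13 to 5.78 FPKM in Mc4r KO. Of 9 genes in this class, 5 were tested and all 5 had overlapping groups, as had 13265 of the 18035 genes tested. Their log2 fold changes were 0.44 for Col16a1 (0.68 without WT replicate 3, limma adjusted p = 0.0457), 0.19 for Col9a2, -0.03 for Col20a1, -0.25 for Col12a1 and -0.33 for Col14a1. Col28a1, a collagen of peripheral nerve that was the only tested member of the remaining class, had a log2 fold change of -0.51 with a 95% interval of -1.37 to 0.35. The 14 members under the filter were Col2a1, Col6a4, Col6a5, Col7a1, Col9a1, Col9a3, Col10a1, Col11a1, Col17a1, Col19a1, Col22a1, Col24a1, Col25a1 and Col26a1. Among them are the main collagens of cartilage and those that anchor skin, and their means lay between 0 and 0.0773 FPKM. Col22a1, a collagen of tissue junctions named here after its values were seen, had the highest mean of these, with 3, 6 and 13 reads in WT and 16, 11 and 18 in Mc4r KO. At such counts a difference between the groups was not detectable.

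The direction of the members went with the base composition of their transcripts. Across the 30 tested members the log2 fold change had a Pearson r of 0.470 and a Spearman rho of 0.495 with the GC content of the longest transcript, and across 18019 tested genes r was 0.250 and rho 0.325. These are descriptions over genes of the same 6 libraries and not over independent samples. Collagen transcripts had a median GC content of 55.9%, beside 49.5% for all genes tested. When the trend of each library with GC content was removed, 7 of 30 members (23.3%) had a log2 fold change above 0 in place of 14, beside 45.9% of all genes, and Col4a1 and Col4a2 went to 0.36 and 0.26 while Col6a6 went to -1.02. When libraries were scaled to their FPKM outside the mitochondrial chromosome, the median of all genes was -0.19 and 9 of 30 members were above 0, beside 30.7% of all genes. Under either setting the 9 members without overlap kept their sign. Whether GC content or the mitochondrial share had a part in the differences was not tested.

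**Figure D4:**
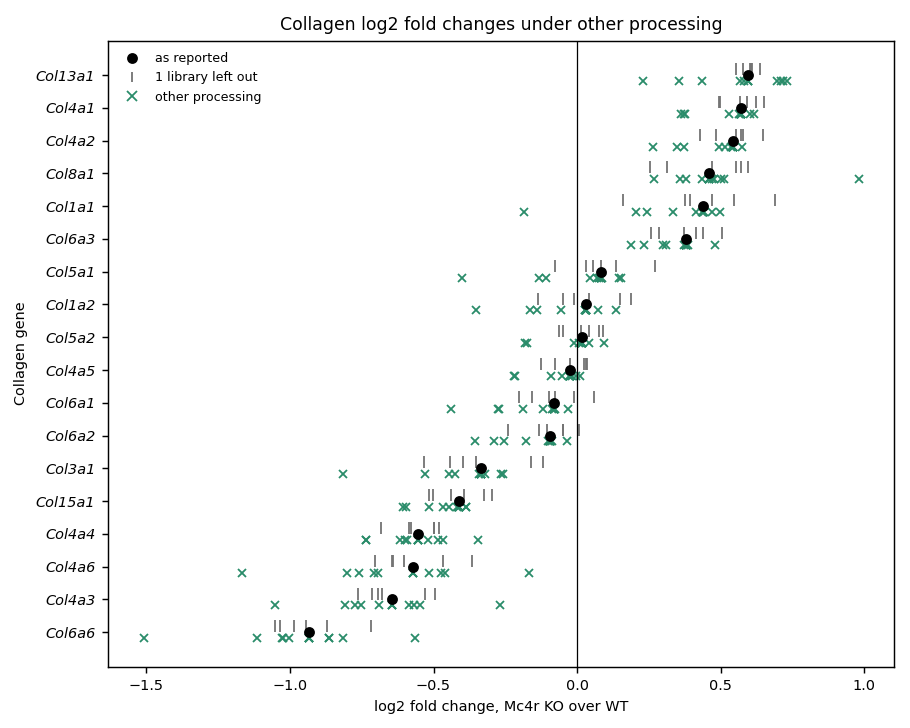
Log2 fold change, Mc4r KO over WT, of the 18 collagen genes named by rule, with black points for the values as reported, grey ticks for fits without 1 library and green crosses for other processing. The values for Col4a1, Col4a2, Col6a3, Col8a1 and Col13a1 stay above 0 and those for Col3a1, Col15a1, Col4a3, Col4a4, Col4a6 and Col6a6 stay below 0, whereas Col1a1, Col1a2, Col5a1, Col5a2, Col4a5, Col6a1 and Col6a2 cross 0 in at least 1 setting. Grey ticks cannot cross 0 for genes whose groups did not overlap.

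Genes that act on collagen were followed in 7 lists of 76 genes, of which 69 were tested. None of the 69 was called in the limma fit, where 0.46% of all genes were. Of the 69, 18 had an unadjusted p under 0.05, or 26.1% beside 20.9% of all genes. A log2 fold change above 0 was found for 31, or 44.9% beside 48.8% of all genes. Their median was -0.02. On the recovered reads, limma voom called 4, which were Lox, Ogn, P4ha1 and Timp4. Leaving out WT replicate 3, limma called 6, which were Aspn, Lox, Loxl1, Ogn, P4ha1 and Timp1, and 726 of all genes. Each other limma fit without 1 library called 0 genes of these lists. Over all settings the adjusted p reached 0.356 for P4ha1, 0.383 for Lox, 0.330 for Ogn and 0.344 for Dcn. It reached 0.548 for Plod1, 0.692 for Plod3, 0.604 for Tmem38b and 0.699 for Serpinh1. For Lum, Loxl1, Timp4 and Timp1 it reached 0.488, 0.749, 0.274 and 0.994. Of the enzymes that modify chains as they are made, 8 of 14 were above 0 and 6 below. P4ha1, a subunit of the prolyl hydroxylase that stabilises the helix, was at 8.91, 10.4 and 10.1 FPKM in WT and at 15.3, 22.1 and 14.9 FPKM in Mc4r KO, without overlap (log2 fold change 0.80, SE 0.16, limma adjusted p = 0.0750, and 0.0470 without WT replicate 3). The lysyl hydroxylases Plod1 and Plod3, which prepare sites for cross-links, had log2 fold changes of 0.38 and 0.36 and did not overlap (limma adjusted p = 0.152 and 0.130, and 0.116 and 0.0440 without WT replicate 3).

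Of 9 genes for folding and export, 3 were above 0. Serpinh1, the chaperone HSP47 that is dedicated to collagen, was at 47.8, 68.7 and 70.7 FPKM in WT and at 87.5, 117 and 80.2 FPKM in Mc4r KO, without overlap (log2 fold change 0.61, limma adjusted p = 0.15025). Tmem38b, an ion channel of the endoplasmic reticulum needed for collagen assembly, had a log2 fold change of 0.54 without overlap (limma adjusted p = 0.0992, and 0.0332 without WT replicate 3), and Mia2, of the cargo export machinery, had -0.26 with overlap. The 8 tested genes for cutting the propeptides all overlapped between groups, as did 13265 of the 18035 genes tested. The 3 with the smallest p were Adamts3 at -0.34, Tll2 at 0.26 and Pcolce2 at -0.21. Of the 5 lysyl oxidases, which cross-link collagen and elastin, 4 were above 0. Lox was at 1.11, 0.999 and 1.21 FPKM in WT and at 2.21, 2.50 and 1.75 FPKM in Mc4r KO, without overlap (log2 fold change 0.89, SE 0.17, limma adjusted p = 0.0688, and 0.0318 without WT replicate 3). Loxl3 had 0.28 without overlap and Loxl1 had 0.47 with overlap. Loxl1 had 0.81 without WT replicate 3, which had its highest value (limma adjusted p = 0.0354).

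Of the 14 tested proteins that bind to fibrils none was called, 10 were below 0, where 51.2% of all genes were, and the median log2 fold change was -0.35. In 4 of the 14 every Mc4r KO library was below every WT library, beside 12.4% of all genes. Ogn, a small leucine-rich proteoglycan, was at 74.0, 65.8 and 50.7 FPKM in WT and at 37.7, 35.5 and 33.7 FPKM in Mc4r KO. Dcn, decorin, which coats type I fibrils, was at 125, 124 and 109 FPKM in WT and at 87.0, 77.1 and 83.0 FPKM in Mc4r KO, and Lum, lumican, at 32.6, 30.1 and 29.8 FPKM in WT and at 26.1, 17.99 and 18.9 FPKM in Mc4r KO. All 3 were lower in every Mc4r KO heart, with log2 fold changes of -0.82, -0.53 and -0.57 (limma adjusted p = 0.0579, 0.0579 and 0.107, and 0.00584, 0.0129 and 0.0791 without WT replicate 3). Aspn, asporin, named here after its values were seen, had -0.57, and -0.84 without WT replicate 3 (limma adjusted p = 0.254 and 0.0354). Dcn and Lum, and Ddr2 of the receptors below, are also among the 9 fibroblast markers. Of these 9, 7 were below 0 and 4 below without overlap, beside 51.2% and 12.4% of all genes, with a median of -0.30. The 4 were Dcn, Lum, Ddr2 and Pdgfra. The summed level of the fibroblast markers was 619 to 836 FPKM in WT and 524 to 707 FPKM in Mc4r KO and overlapped. Most of this sum was Gsn, with a mean of 490 of 730 FPKM in WT and 447 of 632 FPKM in Mc4r KO. The part of fibroblast content in these values was not tested.

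Of 10 tested receptors and uptake proteins, 6 were above 0. Ddr2, a receptor kinase for fibrillar collagen, was at 6.06, 5.43 and 4.98 FPKM in WT and at 4.54, 4.36 and 3.65 FPKM in Mc4r KO (log2 fold change -0.39, limma adjusted p = 0.156), and Lair1, an inhibitory collagen receptor of leukocytes, had -0.72, whereas Mrc2, which takes up collagen fragments, had 0.40. None of these 3 overlapped between groups, but they were named for the smallest p in their list. Over the 10, 2 were higher and 2 lower without overlap, beside 14.1% and 12.4% of all genes. Of the collagenases and their inhibitors, 2 of 9 were above 0 and both were inhibitors. Timp4 was at 11.0, 10.7 and 5.86 FPKM in WT and at 17.01, 16.25 and 18.54 FPKM in Mc4r KO (log2 fold change 0.96, limma adjusted p = 0.0996). It was 0.67 without WT replicate 3, which had the lowest Timp4 value (limma adjusted p = 0.0130). Timp1 was at 0.479, 0.706 and 2.18 FPKM in WT and at 3.99, 2.08 and 3.86 FPKM in Mc4r KO, where WT replicate 3 lay above Mc4r KO replicate 2 (log2 fold change 1.68, limma adjusted p = 0.135, and 2.26 with 0.0163 without WT replicate 3). Timp2 was lower without overlap, at -0.39 (limma adjusted p = 0.133).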

How the data were processed

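RNA from the hearts of 6 mice was sequenced as paired reads. The authors discarded reads with adapter, with undetermined bases or of low quality, aligned the rest with HISAT2 2.0.5 (per the labels, to mm10), counted reads on genes with featureCounts and deposited FPKM for each gene and library. The strand setting of the counting is not given in the sources used here, so reads of overlapping antisense genes cannot be told apart. A library's FPKM is proportional to reads divided by gene length, and whole reads were recovered from these steps for 100% of values within 0.05 of a whole read, giving 14691076 to 16047003 reads on genes per library. A floor is 3 reads.

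Because FPKM are not counts, no count test was the main one. Groups were compared with limma 3.58.1 in R 4.3.3 (trend, log2(FPKM + 0.1), median-of-ratios scaling whose factors were all 1) over 18035 genes with a mean of at least 0.1 FPKM, with Benjamini-Hochberg adjustment and 95% intervals. Genes were called when the adjusted p lay under 0.05 with a log2 fold change beyond 0.75 in size. Each library is a mouse. The step was tested on simulated reads with known changes, all larger than that of any collagen gene tested. The simulated libraries did not differ in GC trend or mitochondrial share. That test does not show how well smaller changes are found. Chain ratios were compared by exact two-sided permutation tests, adjusted over 8 ratios. limma voom was run on the recovered reads. GC content and transcript lengths came from GENCODE M21, which held 99.8% of the identifiers, and promoter windows from RefSeq. Collagen members, 7 classes, 7 lists of genes acting on collagen and 12 lists of cell type markers were chosen with earlier results of these data known. Values in every library are given for the 12 members with the highest mean and for members whose groups did not overlap, and in each list the 3 genes with the smallest p are named. WT and Mc4r KO libraries with the same number did not deviate together (correlations of -0.14, 0.0074 and -0.082 over 11297 genes), so the numbers were not taken as pairs. The alternatives tried were other pseudocounts, filters, scalings, library weights, gene sets, GC and length corrections, a mitochondrial covariate, a replicate block, voom and leaving out each library.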

Additional observations from a re-analysis of the deposited data

How the results depend on the processing

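Under 19 alternatives per gene, Col4a1, Col4a2, Col6a3, Col8a1, Col13a1, Col3a1, Col15a1, Col4a3, Col4a4, Col4a6 and Col6a6 kept their direction wherever they could be fitted, as did the ratios of Col3a1 and Col1a2 to Col1a1 and of Col6a3 to Col6a1 under theirs. Where groups did not overlap, as for these ratios and all these genes but Col8a1 and Col3a1, leaving out 1 library cannot turn the sign. The replicate block, the filters and the protein-coding set return the same fold change by construction. A kept direction under those settings therefore adds nothing. The cause of the changes that follow was not tested. In limma, 1 member was called with array weights and 1 with voom on recovered reads, Col6a6 each time, where 435 and 314 of all genes were called. The lists of genes acting on collagen had 1 call with a mean of at least 1 FPKM (Ogn), 5 with array weights, 4 with voom, 3 among protein-coding genes only, and 0 to 6 without 1 library, the most without WT replicate 3, when 726 of all genes were called. The replicate block called 0 members and 11 of all genes, and 14 members stayed above 0.

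Members above 0 numbered 22 of 43 without a filter, 9 of 30 scaled outside the mitochondrial chromosome, 7 after GC correction, 6 with the mitochondrial share as covariate, and 9 without WT replicate 1 to 20 without WT replicate 3. Some log2 fold changes turned sign. With the mitochondrial covariate they were -0.18 for Col1a1, -0.35 for Col1a2, -0.40 for Col5a1, -0.18 for Col5a2, 0.056 for Mia2, -0.35 for Loxl1 and -0.0066 for Timp1. Scaled outside the mitochondrial chromosome they were -0.16 for Col1a2, -0.11 for Col5a1 and -0.17 for Col5a2. After GC correction they were -0.14 for Col1a2, -0.13 for Col5a1 and -0.0098 for Col5a2, and the ratios of Col5a2 to Col5a1 and Col6a2 to Col6a1 were 0.12 and 0.017. Quantile normalization gave -0.055 for Col1a2 and 0.012 for Col6a2 to Col6a1, and length correction gave 0.0092 for Col4a5 and 0.082 for Col6a2 to Col6a1.

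Without 1 library at a time, values ran from -0.20 to 0.058 for Col6a1, -0.14 to 0.19 for Col1a2, -0.24 to 0.0050 for Col6a2, -0.077 to 0.27 for Col5a1, -0.13 to 0.033 for Col4a5 and -0.061 to 0.091 for Col5a2. The ratios ran from -0.18 to 0.027 for Col5a2 to Col5a1, -0.057 to 0.050 for Col6a2 to Col6a1, -0.13 to 0.34 for Col4a1 to Col1a1 and -0.43 to 0.43 for Col8a1 to Col1a1. The lowest value of the last 2 was that without WT replicate 3. With 3 hearts per group an exact test cannot go below 0.1, and members under 0.1 FPKM had too few reads to compare.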

Other observations

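The remaining marker lists give the cell types that the hearts could hold, each with the sum of its FPKM. Activated fibroblast markers summed to 47.7 to 79.7 in WT and 44.9 to 106 in Mc4r KO, and 5 of 8 had a log2 fold change above 0. Postn, a matrix protein of activated fibroblasts, was at 4.59, 5.89 and 4.60 FPKM in WT and at 5.94, 3.31 and 3.17 FPKM in Mc4r KO. Smooth muscle and pericyte markers summed to 247 to 316 in WT and 217 to 318 in Mc4r KO. Most of this sum was Rgs5, with means of 185 FPKM in WT and 144 FPKM in Mc4r KO. The means of Acta2 were 46.6 and 67.5 FPKM and those of Myh11 were 8.62 and 12.1 FPKM. Tagln was under 0.4 FPKM in all 6 libraries. Macrophage markers summed to 50.7 to 88.3 in WT and 63.7 to 82.9 in Mc4r KO. Of the 6, 3 had every Mc4r KO library below every WT library, beside 12.4% of all genes. These were Cd68, Csf1r and Mrc1, and none passed the threshold in limma (adjusted p of 0.186, 0.183 and 0.190). The other 3 overlapped, with log2 fold changes of 0.63 for C1qa, 0.28 for Cx3cr1 and -0.03 for Adgre1.

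Valve and cartilage markers summed to 1.43, 7.60 and 8.59 in WT and to 5.14, 1.54 and 1.82 in Mc4r KO, and Matn1 was at 0 in all 6 libraries. Schwann cell markers summed to 4.27 to 6.53 in WT and 3.77 to 5.20 in Mc4r KO. Of the adipocyte markers only Fabp4, which endothelial cells also express, was above 1 FPKM, and Lep was at 0 in all 6 libraries. Of the skeletal muscle markers Myh4 was at 0 in all 6 libraries, and the sum of 356 to 594 in WT and 574 to 959 in Mc4r KO came from Acta1 and Ckm, which heart muscle also expresses. None of the genes of these lists was called. Their part in the collagen values was not tested.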
